A study of Mus musculus with 16 samples.

Results

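Adenosine and nucleotide receptors were represented by 10 genes: the adenosine receptors Adora1, Adora2b and Adora3, the P2Y receptors P2ry1, P2ry6, P2ry13 and P2ry14, and the P2X channels P2rx4, P2rx6 and P2rx7. The genes were chosen by name, and each non-control probe whose RefSeq transcript belonged to one of them was taken, which gave 15 probes out of 41174 on the array and 10 genes out of 17174 that could be named. The choice was made with results of these arrays known, and which values led to it is not recorded. The members' levels and differences are therefore a description, and the adjusted p-values beside them are what a fit over the whole array returned.

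Cells release ATP and other nucleotides, which act at their surface on 2 receptor classes, the P2X channels that ATP opens and the P2Y receptors that couple to G proteins. Ectonucleotidases degrade the nucleotides to adenosine, which acts on its own G protein-coupled receptors. In the hippocampus the A1 receptor is best known for damping glutamate release, while several P2Y and P2X receptors are known from microglia, the resident immune cells of the brain.

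RNA came from the hippocampus of male mice in 4 groups of 4 one-colour arrays each, 16 in all: SAM/P-8 mice given CE-2 chow with 0.1% coral calcium hydride (CCH), SAM/P-8 mice given CE-2 alone (control), SAM/R-1 mice given the CCH chow, and SAM/R-1 mice given CE-2 alone. Feeding began at 8 weeks of age and lasted 8 weeks per the design text, while the sample labels give 8 weeks as the age. SAM/P-8 is a senescence-prone and SAM/R-1 a senescence-resistant inbred line, and the labels trace both to AKR/J stock, so the control groups share that background too. The labels do not say that replicates were separate animals or whether tissue was pooled, and the p-values then reflect no more than the spread between these samples, which may be technical. Every group had a slide to itself, and slide and group therefore cannot be told apart. In bulk tissue, fewer cells of a type and less RNA per cell cannot be told apart either.

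Between 28920 and 33333 of the 43379 non-control spots were well above background per array, and all 12 hippocampal neuron markers listed were measured. For each marker list a score per array was taken as the mean log2 deviation of its genes from their means over the 16 arrays. One array stood apart in a striatal list of 12 genes: SAM/P-8 CCH replicate 4 scored 3.66, whereas the other arrays lay between -0.85 and 0.29. In a list of 3 blood genes, SAM/P-8 control replicates 1 and 2 scored 1.93 and 2.66, and the other arrays lay between -1.11 and 0.30. For the 10 receptors and for Entpd1, Entpd2, Enpp1, Ada, Pycard, Il1b and Gnai2, calls lost or gained without these arrays are given with and without them. Other genes named, Slc29a2 among them, were not refitted without them.

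Levels are given as log2 processed signal minus the 75th percentile of the array, so that 0 is the signal of a probe at that percentile. Such levels compare one probe across arrays and not one gene with another. A gene was represented by its probe of highest mean, and all 10 genes met the condition for testing, a probe well above background throughout the 4 arrays of some group. Differences are SAM/P-8 minus SAM/R-1 or CCH minus control, each ± SE from limma, and a difference was called when its Benjamini-Hochberg adjusted p over all 29013 probes tested was under 0.05.

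Between 0 and 3 of the 10 receptors were called in each comparison. In the strain comparison on the control diet P2ry1 and P2ry6 were higher and Adora3 lower in SAM/P-8, 3 of 10 genes, where 12.8% of all genes tested were called. On the CCH diet 0 of 10 were called between the strains by limma, where 12.6% of all genes were, and 3 had an unadjusted p under 0.05. With CCH, Adora3 was higher and P2ry6 lower in SAM/P-8, 2 of 10 genes, where 0.765% of all genes were called. In SAM/R-1, 0 of 10 were called for CCH by limma, where 0.111% of all genes were, and 1 had an unadjusted p under 0.05. Averaged over the strains, P2ry6 alone among the 10 was called, lower with CCH, where 4.15% of all genes were called. The interaction, the difference between the CCH effects of the strains, was called by limma for 0 of 10 and for 0.126% of all genes, and 2 of the 10 had an unadjusted p under 0.05. The median difference of the 10 genes stayed small in each comparison, at 0.03 and 0.09 between the strains on the control and CCH diets and at -0.04 for CCH in SAM/P-8 and -0.07 for CCH in SAM/R-1, beside medians over all genes of -0.0096, -0.02, -0.02 and -0.02.

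**Figure D1:**
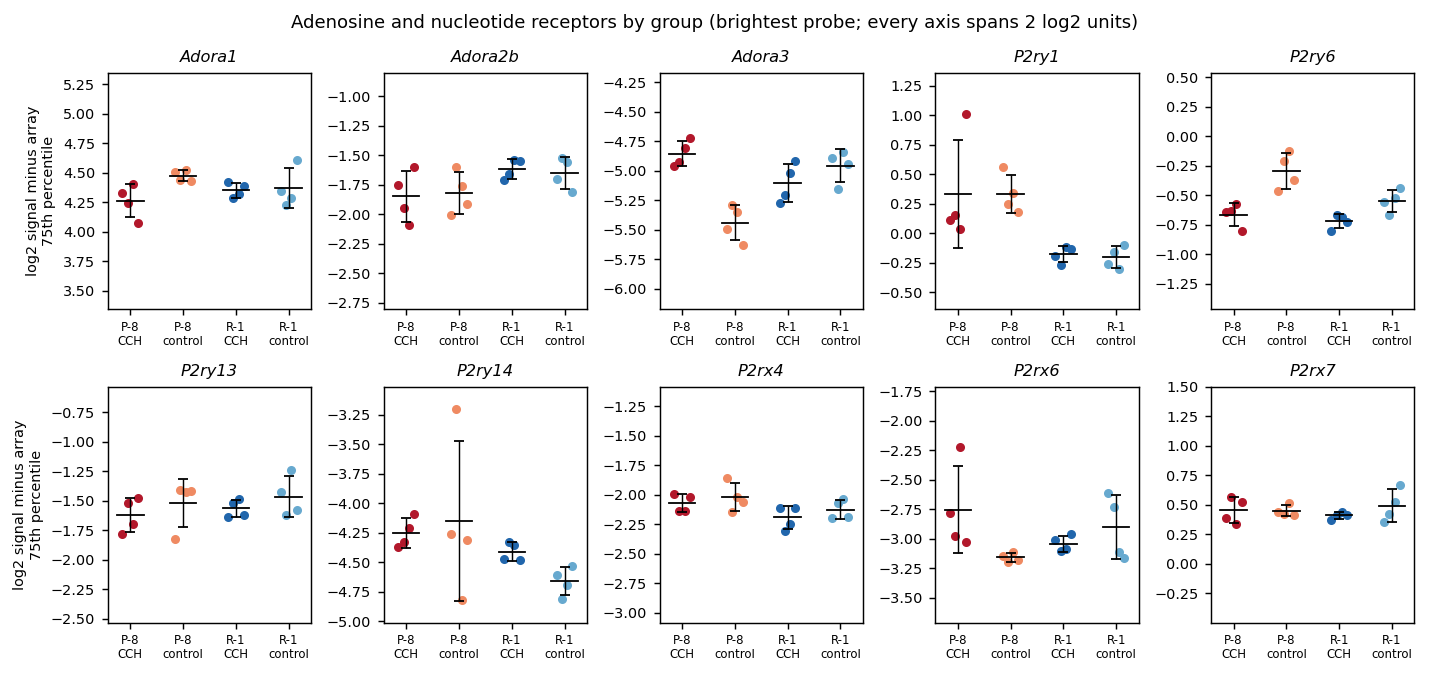
Normalised log2 signal of the brightest probe of each receptor gene, 1 point per array, for SAM/P-8 CCH, SAM/P-8 control, SAM/R-1 CCH and SAM/R-1 control arrays, with the group mean ± SD (n = 4) as bars. Every vertical axis spans 2 log2 units. The Adora3 points of SAM/P-8 CCH, from -4.96 to -4.72, lie above all those of SAM/P-8 control, from -5.62 to -5.29, and the single high P2ry1 point in SAM/P-8 CCH is replicate 4 at 1.01.

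Among the adenosine receptors, Adora1 encodes the A1 receptor, which couples to inhibitory G proteins and limits transmitter release. Its brightest probe gave 4.33, 4.25, 4.40 and 4.08 on SAM/P-8 CCH arrays, 4.51, 4.44, 4.52 and 4.43 on SAM/P-8 control arrays, 4.42, 4.28, 4.32 and 4.39 on SAM/R-1 CCH arrays, and 4.35, 4.23, 4.29 and 4.61 on SAM/R-1 control arrays. All 4 SAM/P-8 CCH arrays lay below all 4 SAM/P-8 control arrays, while the SAM/R-1 groups overlapped. The CCH difference in SAM/P-8 was -0.21 ± 0.08 (limma adjusted p = 0.191), and the lowest value came from the array with striatal signal, without which it was -0.15 ± 0.08 (adjusted p = 0.38). A second probe of similar brightness gave -0.30 ± 0.09 for the same comparison (adjusted p = 0.11), and the remaining, much dimmer probe gave 0.06 ± 0.10 (adjusted p = 0.794). Of the 3 Adora1 probes, 0 were called in any comparison by limma, and the second and the dimmer one had unadjusted p-values of 0.0107 and 0.0393 for the strain difference on the control diet. Without the array with striatal signal the dimmer probe was higher in SAM/P-8 on the CCH diet by 0.29 ± 0.08 (adjusted p = 0.0403).

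Adora2b encodes the A2B receptor, which couples to stimulatory G proteins and needs high adenosine to respond. Its single probe averaged -1.85 ± 0.22 on SAM/P-8 CCH arrays, -1.82 ± 0.17 on SAM/P-8 control arrays, -1.62 ± 0.09 on SAM/R-1 CCH arrays and -1.65 ± 0.13 on SAM/R-1 control arrays (SD, n = 4 each). The lowest array was SAM/P-8 CCH replicate 3 at -2.09, and the strain groups overlapped on both diets. The strain difference was -0.23 ± 0.11 on the CCH diet (limma adjusted p = 0.177) and -0.17 ± 0.11 on the control diet (adjusted p = 0.339).

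Adora3, the A3 receptor, known in rodents from mast cells and microglia, had the largest CCH difference of the 10 genes in SAM/P-8. Its only probe gave -4.96, -4.92, -4.81 and -4.72 on SAM/P-8 CCH arrays, -5.49, -5.29, -5.35 and -5.62 on SAM/P-8 control arrays, -5.27, -5.20, -5.02 and -4.92 on SAM/R-1 CCH arrays, and -4.89, -5.15, -4.84 and -4.94 on SAM/R-1 control arrays. SAM/P-8 control was the lowest group, and it overlapped neither SAM/P-8 CCH nor SAM/R-1 control. With CCH the signal was 1.5-fold higher in SAM/P-8, a log2 difference of 0.59 ± 0.10 (limma adjusted p = 0.0165). On the control diet it was 1.40-fold lower in SAM/P-8 than SAM/R-1, a log2 difference of -0.48 ± 0.10 (adjusted p = 0.00334). Both comparisons share the SAM/P-8 control arrays. On the CCH diet the strain difference had the opposite sign, 0.25 ± 0.10 (adjusted p = 0.106), and the groups overlapped. In SAM/R-1 the CCH difference was -0.15 ± 0.10 (adjusted p = 0.609), and the difference between the CCH effects of the strains was 0.73 ± 0.14 (adjusted p = 0.0547), past the unadjusted but not the adjusted threshold.

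The Adora3 probe was near background. Its processed signal ran from 22.9 to 46.8 intensity units, and it was well above background on 15 of 16 arrays, all but 1 SAM/P-8 control array. Leaving out each of the 8 arrays of a comparison in turn kept both calls, with CCH differences in SAM/P-8 from 0.52 to 0.63. Without both SAM/P-8 control arrays of raised blood signal the CCH difference in SAM/P-8 was 0.63 ± 0.12 (adjusted p = 0.0782), and with another background correction (normexp) the differences were 0.39 for CCH in SAM/P-8 (adjusted p = 0.82) and -0.26 for the strains on the control diet (adjusted p = 0.988). Under normexp the SAM/R-1 difference for CCH turned to 0.30 ± 0.32 (adjusted p = 0.599) and the difference between the CCH effects of the strains was 0.08 ± 0.45 (adjusted p = 1). The strain difference on the CCH diet was -0.17 ± 0.32 under normexp (adjusted p = 0.807). With quantile scaling the CCH difference in SAM/P-8 was 0.51 ± 0.11 (adjusted p = 0.0531). The difference between the CCH effects of the strains was 0.59 ± 0.16 with that scaling (adjusted p = 0.429). It was 0.78 ± 0.14 without SAM/P-8 control replicate 2, an array of raised blood signal (adjusted p = 0.0465). Arrays of the other strain had the same effect on the call. Omitting replicate 4 of the SAM/R-1 CCH group gave 0.795 ± 0.13 (adjusted p = 0.033). Omitting replicate 2 of the SAM/R-1 controls gave 0.80 ± 0.13 (adjusted p = 0.0323). With both arrays of raised blood signal left out, this difference was not called. The microglial score (17 genes) ran from -0.0053 to 0.15 on SAM/P-8 CCH arrays and from -0.07 to 0.17 on SAM/P-8 control arrays. For CCH in SAM/P-8, 0 of 17 microglial genes were called by limma, where 0.765% of all genes were, with 2 at an unadjusted p under 0.05. On the control diet 3 of 17 microglial genes were called higher in SAM/P-8, where 6.17% of all genes were, among them Ly86 by 0.51 ± 0.10 (adjusted p = 0.00315), and 0 were called lower, while 10 of the 17 differences were positive and 7 negative. On the CCH diet 7 of 17 were called higher in SAM/P-8, where 6.09% of all genes were, and 0 were called lower. There 13 differences were positive and 4 negative. The part of microglia in the Adora3 differences was not tested.

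The promoters of the genes whose data are set out most fully are shown with the motifs that were searched in all members, taken from RefSeq on GRCm38.p6 as windows that span the annotated start. Adora3 is on chromosome 3, plus strand, chr3:105904171-105904470. Capitals mark an AP-1 site (TGANTCA, the same on both strands) that starts at position -98 and a PU.1 site (GAGGAAGT, on the minus strand) that starts at -30. PU.1 is a transcription factor of microglia and other myeloid cells.
Adora3 promoter: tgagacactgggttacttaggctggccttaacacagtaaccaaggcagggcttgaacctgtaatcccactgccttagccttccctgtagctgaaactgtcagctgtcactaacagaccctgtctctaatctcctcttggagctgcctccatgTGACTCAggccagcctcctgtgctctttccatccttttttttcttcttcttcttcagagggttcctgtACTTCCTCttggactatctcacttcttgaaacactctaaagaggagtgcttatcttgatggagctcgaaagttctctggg
Of 32851 such windows, 7.81% held the AP-1 letters and 3.2% the PU.1 letters on either strand. A match describes these letters and is not evidence of a bound site. The E-box CACGTG (7.15% of windows) and the cAMP response element TGACGTCA (1.79%) were found in no window of the 9 members that had one, and a TATA box, TATAAA (13.6%), only in P2ry14 and P2rx6. The AP-1 letters were also found in Adora1 (at -104), P2ry14 (at -202 and -144) and P2rx7, and the PU.1 letters also in P2rx7. P2ry6 was the member without a window.

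Among the P2Y receptors, P2ry1 encodes a receptor for ADP that couples to phospholipase C. By brightest probes it was the only one of the 10 whose strains did not overlap on either diet. How many of all genes tested separated the strains in this way was not counted. Its brightest probe gave 0.12, 0.16, 0.04 and 1.01 on SAM/P-8 CCH arrays, 0.56, 0.25, 0.34 and 0.18 on SAM/P-8 control arrays, -0.19, -0.27, -0.11 and -0.13 on SAM/R-1 CCH arrays, and -0.26, -0.15, -0.30 and -0.10 on SAM/R-1 control arrays. Every SAM/P-8 array lay above every SAM/R-1 array, on both diets. On the control diet the signal was 1.45-fold higher in SAM/P-8, a log2 difference of 0.54 ± 0.17 (limma adjusted p = 0.0441), and on the CCH diet the difference was 0.51 ± 0.17 (adjusted p = 0.0568). The CCH difference was -0.0023 ± 0.17 in SAM/P-8 (adjusted p = 0.996), or -0.23 ± 0.08 without replicate 4 of SAM/P-8 CCH (adjusted p = 0.207), and 0.03 ± 0.17 in SAM/R-1 (adjusted p = 0.97).

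The highest P2ry1 value came from SAM/P-8 CCH replicate 4, the array with striatal signal, which also had the highest oligodendrocyte score (0.48, against -0.17 to -0.03 in the other SAM/P-8 CCH arrays) and the lowest hippocampal neuron score (-0.33). Without it the strain difference on the CCH diet was 0.28 ± 0.08 (adjusted p = 0.0446), and without replicate 3 of that group it was 0.60 ± 0.17 (adjusted p = 0.0353). The call on the control diet was lost without each of its 8 arrays, with differences from 0.46 to 0.59 and adjusted p-values from 0.0509 to 0.114. Without both arrays of raised blood signal it was 0.47 ± 0.21 (adjusted p = 0.235), and the mean of both P2ry1 probes gave 0.27 ± 0.20 (adjusted p = 0.422). The second P2ry1 probe lay near background, at 14.6 to 64.7 intensity units, and its strain difference was 0.0052 ± 0.29 on the control diet (adjusted p = 0.994) and 0.68 ± 0.29 on the CCH diet (adjusted p = 0.137). The P2ry1 window, on chromosome 3, plus strand, chr3:61002535-61002834, held none of the 5 motifs.
P2ry1 promoter: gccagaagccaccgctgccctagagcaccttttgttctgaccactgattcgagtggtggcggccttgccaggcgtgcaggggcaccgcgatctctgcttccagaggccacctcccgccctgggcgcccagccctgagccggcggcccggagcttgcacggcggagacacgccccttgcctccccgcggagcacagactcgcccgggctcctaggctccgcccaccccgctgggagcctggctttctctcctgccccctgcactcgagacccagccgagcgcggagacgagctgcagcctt

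P2ry6 encodes a receptor for UDP that is known to drive phagocytosis in microglia, and it was the only one of the 10 called for CCH averaged over the strains. Its single probe gave -0.64, -0.63, -0.58 and -0.80 on SAM/P-8 CCH arrays, -0.46, -0.21, -0.13 and -0.37 on SAM/P-8 control arrays, -0.80, -0.66, -0.68 and -0.72 on SAM/R-1 CCH arrays, and -0.56, -0.66, -0.53 and -0.44 on SAM/R-1 control arrays. SAM/P-8 control was the highest group, and in each strain all CCH arrays lay below all control arrays, though in SAM/R-1 the nearest pair both read -0.66. With CCH the signal was 1.29-fold lower in SAM/P-8, a log2 difference of -0.37 ± 0.08 (limma adjusted p = 0.0416), and the difference in SAM/R-1 was -0.17 ± 0.08 (adjusted p = 0.435). Averaged over the strains it was lower with CCH by a log2 difference of -0.27 ± 0.05 (adjusted p = 0.0211), and the difference between the strains' CCH effects was -0.20 ± 0.11 (adjusted p = 0.924). On the control diet it was 1.19-fold higher in SAM/P-8, a log2 difference of 0.25 ± 0.08 (adjusted p = 0.0391), and on the CCH diet the strain difference was 0.06 ± 0.08 (adjusted p = 0.675).

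Of these 3 P2ry6 calls, the one averaged over the strains was kept without each of the 16 arrays, with differences from -0.30 to -0.24. The call for CCH in SAM/P-8 was lost without any SAM/P-8 CCH array and without SAM/P-8 control replicates 2 or 3, with adjusted p-values from 0.0609 to 0.124 in those 6 fits. The call between strains on the control diet was lost without replicates 2 or 3 of SAM/P-8 control and without SAM/R-1 control replicates 1, 2 or 3, with differences from 0.20 to 0.26 in those 5 fits. Without both arrays of raised blood signal the P2ry6 difference was -0.42 ± 0.09 for CCH in SAM/P-8 (adjusted p = 0.0992) and 0.30 ± 0.09 between the strains on the control diet (adjusted p = 0.0568). Within groups P2ry6 ran against the endothelium and pericyte score (r = -0.72 over the 16 arrays) and with the hippocampal neuron score (r = 0.70). That endothelial score lay between 0.15 and 0.48 on SAM/P-8 CCH arrays and between 0.11 and 0.57 on SAM/P-8 control arrays, and between -0.30 and -0.0021 on SAM/R-1 CCH arrays and between -0.59 and -0.24 on SAM/R-1 control arrays. The neuron score lay between -0.33 and 0.09 on SAM/P-8 CCH arrays and -0.02 and 0.18 on SAM/P-8 control arrays. On SAM/R-1 arrays it lay between -0.08 and -0.0186 with CCH and -0.0178 and 0.08 without. For CCH averaged over the strains, limma called 2 of its 12 genes lower and 0 higher, where 2.54% of all genes were called lower. In SAM/P-8, 0 were called for CCH, where 0.765% of all genes were, with 6 at an unadjusted p under 0.05. The part of both scores in the P2ry6 differences was not tested.

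P2ry13, a receptor for ADP found mainly in microglia within the brain, averaged -1.62 ± 0.15 on SAM/P-8 CCH arrays, -1.52 ± 0.20 on SAM/P-8 control arrays, -1.56 ± 0.07 on SAM/R-1 CCH arrays and -1.46 ± 0.17 on SAM/R-1 control arrays (SD, n = 4 each). All groups overlapped, and all 6 comparisons gave adjusted p-values of 0.448 or more. One array of SAM/P-8 control, replicate 1, was low at -1.82 while the other 3 arrays of that group lay between -1.43 and -1.40. Over the 16 arrays, within groups, P2ry13 correlated with the microglial score at r = 0.89.

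P2ry14, a receptor for UDP-glucose, was dim, at 35.4 to 124 intensity units. It gave -4.37, -4.32, -4.21 and -4.09 on SAM/P-8 CCH arrays, -4.26, -3.20, -4.82 and -4.31 on SAM/P-8 control arrays, -4.47, -4.33, -4.35 and -4.48 on SAM/R-1 CCH arrays, and -4.61, -4.81, -4.69 and -4.53 on SAM/R-1 control arrays. All SAM/R-1 CCH arrays lay above all SAM/R-1 control arrays, and the widest spread was on SAM/P-8 control arrays, whose highest array was replicate 2, the one with the most blood signal. The strain difference on the control diet was 0.51 ± 0.23 (limma adjusted p = 0.166). It was 0.10 ± 0.13 without both arrays of raised blood signal (adjusted p = 0.753). Leaving out replicate 3 of the SAM/P-8 controls instead gave 0.74 ± 0.20 (adjusted p = 0.0297). Within groups P2ry14 correlated with the blood score at r = 0.73 over the 16 arrays.

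**Figure D2:**
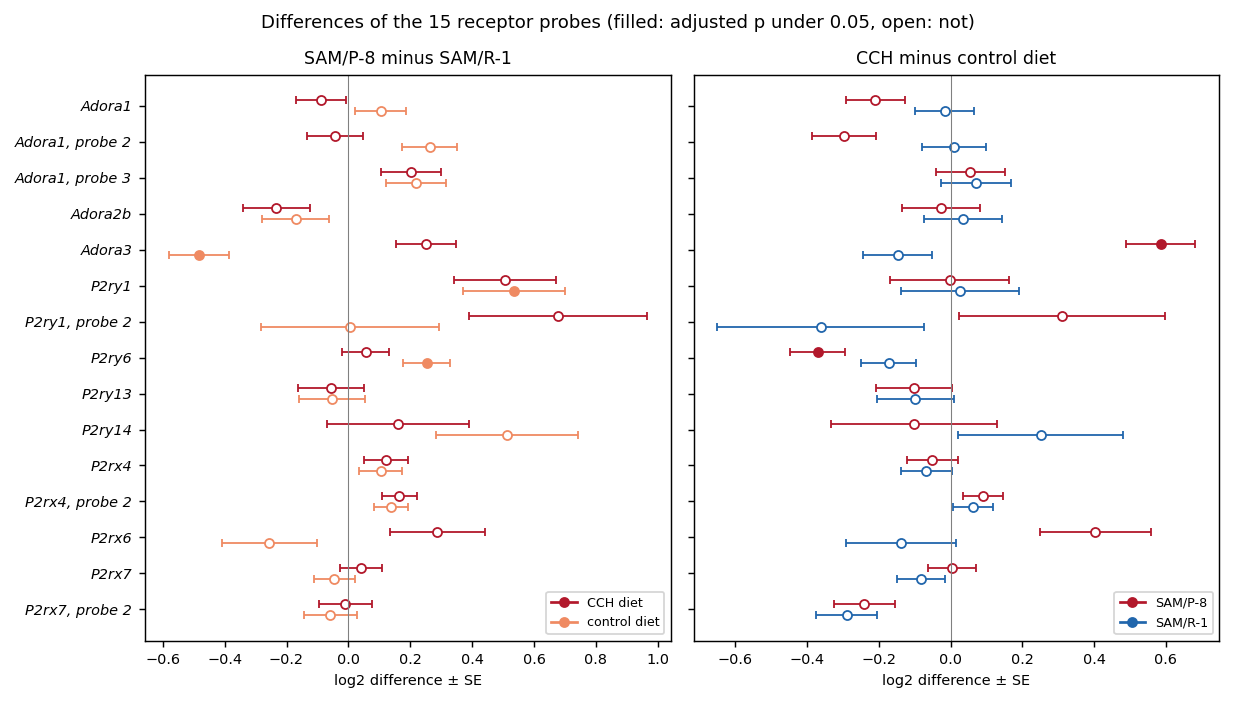
Log2 differences ± SE of the 15 receptor probes, SAM/P-8 minus SAM/R-1 on the left (CCH and control diet) and CCH minus control diet on the right (SAM/P-8 and SAM/R-1), with filled points for an adjusted p under 0.05. Filled points are Adora3 (-0.48), P2ry1 (0.54) and P2ry6 (0.25) between the strains on the control diet and Adora3 (0.59) and P2ry6 (-0.37) for CCH in SAM/P-8.

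The P2X channels gave no call by their brightest probes. P2rx4, an ATP-gated channel that microglia increase after nerve injury, averaged -2.07 ± 0.08 on SAM/P-8 CCH arrays, -2.02 ± 0.12 on SAM/P-8 control arrays, -2.19 ± 0.10 on SAM/R-1 CCH arrays and -2.12 ± 0.08 on SAM/R-1 control arrays (SD, n = 4 each). The strain difference was 0.12 ± 0.07 on the CCH diet (limma adjusted p = 0.281) and 0.10 ± 0.07 on the control diet (adjusted p = 0.371). A second probe gave 0.16 ± 0.06 on the CCH diet, where no SAM/P-8 array overlapped a SAM/R-1 array (adjusted p = 0.0646), and 0.14 ± 0.06 on the control diet (adjusted p = 0.123). Under normexp the second probe gave 0.0058 ± 0.14 on the CCH diet (adjusted p = 0.985). The brightest gave -0.0066 ± 0.12 there (adjusted p = 0.981). Within groups P2rx4 correlated with the endothelium and pericyte score at r = 0.78, and that list was higher in SAM/P-8 for 9 of 10 genes on the control diet and 4 of 10 on the CCH diet, where 6.17% and 6.09% of all genes were called higher. Its part in the P2rx4 values was not tested.

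P2rx6 encodes a subunit that forms channels poorly on its own and joins with other P2X subunits. It gave -2.78, -2.98, -2.23 and -3.03 on SAM/P-8 CCH arrays, -3.15, -3.19, -3.11 and -3.18 on SAM/P-8 control arrays, -3.01, -3.10, -3.09 and -2.96 on SAM/R-1 CCH arrays, and -2.61, -2.73, -3.11 and -3.16 on SAM/R-1 control arrays. All SAM/P-8 CCH arrays lay above all SAM/P-8 control arrays, with replicate 3 of SAM/P-8 CCH well above the rest. The CCH difference was 0.40 ± 0.15 in SAM/P-8 (limma adjusted p = 0.182) and -0.14 ± 0.15 in SAM/R-1 (adjusted p = 0.79). Leaving out single arrays moved the SAM/P-8 difference between 0.23 and 0.50, with 0 calls.

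P2rx7 encodes the channel through which high ATP triggers the NLRP3 inflammasome in microglia. Its 2 probes were assigned to different RefSeq transcripts and gave different results. The brightest averaged 0.45 ± 0.11 on SAM/P-8 CCH arrays, 0.45 ± 0.05 on SAM/P-8 control arrays, 0.41 ± 0.03 on SAM/R-1 CCH arrays and 0.49 ± 0.14 on SAM/R-1 control arrays (SD, n = 4 each). Its CCH difference averaged over the strains was -0.04 ± 0.05 (limma adjusted p = 0.659). The second probe gave -3.68, -3.49, -3.47 and -3.74 on SAM/P-8 CCH arrays, -3.41, -3.22, -3.33 and -3.46 on SAM/P-8 control arrays, -3.54, -3.64, -3.72 and -3.45 on SAM/R-1 CCH arrays, and -3.49, -3.29, -3.21 and -3.20 on SAM/R-1 control arrays. All CCH arrays of SAM/P-8 lay below its control arrays, while in SAM/R-1 replicate 1 of the controls lay among the CCH arrays.

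Averaged over the strains, the second P2rx7 probe was 1.2-fold lower with CCH, a log2 difference of -0.26 ± 0.06 (limma adjusted p = 0.0326), where 4.16% of all probes tested were called. That call was lost in 8 of the 16 fits that left out 1 array, namely without SAM/P-8 CCH replicate 1, SAM/P-8 control replicates 2 or 3, SAM/R-1 CCH replicates 1 or 3, or SAM/R-1 control replicates 2, 3 or 4, with differences from -0.27 to -0.24 in those fits. Without both arrays of raised blood signal it was -0.24 ± 0.07 (adjusted p = 0.08), and with the normexp background correction the difference was 0.05 ± 0.18 (adjusted p = 0.861). The probe's processed signal was 79.3 to 122 intensity units. Because transcripts are at issue, both annotated starts of P2rx7 are shown, on chromosome 5, plus strand, chr5:122643677-122643976 and chr5:122650133-122650432. Capitals mark an AP-1 site starting at -249 in the first and a PU.1 site, on the minus strand, starting at 3 in the second. Which start serves which probe was not determined.
P2rx7 first promoter: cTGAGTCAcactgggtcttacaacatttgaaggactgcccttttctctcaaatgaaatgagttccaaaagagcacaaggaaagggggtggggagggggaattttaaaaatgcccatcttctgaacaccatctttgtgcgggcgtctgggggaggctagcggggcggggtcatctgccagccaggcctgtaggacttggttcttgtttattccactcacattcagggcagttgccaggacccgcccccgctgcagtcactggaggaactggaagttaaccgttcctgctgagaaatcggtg
P2rx7 second promoter: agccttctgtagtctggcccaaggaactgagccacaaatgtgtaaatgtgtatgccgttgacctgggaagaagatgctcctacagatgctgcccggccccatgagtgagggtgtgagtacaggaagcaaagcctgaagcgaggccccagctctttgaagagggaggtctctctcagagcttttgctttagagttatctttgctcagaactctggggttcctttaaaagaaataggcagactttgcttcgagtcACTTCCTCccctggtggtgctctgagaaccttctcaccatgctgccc

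**Figure D3:**
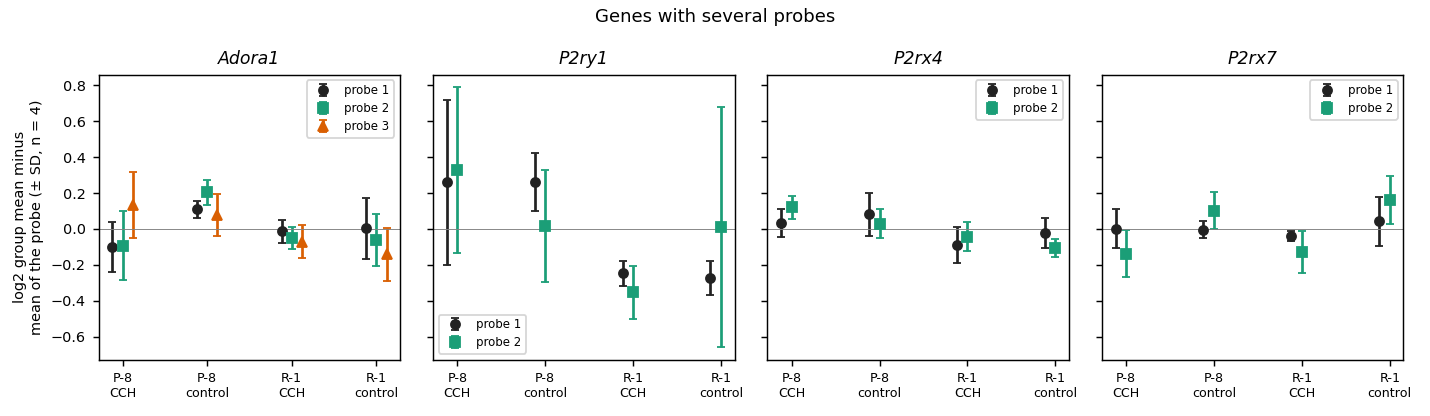
Group means ± SD (n = 4) of each probe of the 4 receptor genes with several probes, in log2 units after subtracting the probe's own mean over the 16 arrays, for SAM/P-8 CCH, SAM/P-8 control, SAM/R-1 CCH and SAM/R-1 control. The second P2rx7 probe is lower in both CCH groups (probe means -3.60 in SAM/P-8 CCH against -3.36 in its control, and -3.59 in SAM/R-1 CCH against -3.30 in its control), while the brightest is level, and the dim second P2ry1 probe spreads most in SAM/R-1 control (SD 0.67).

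Over the 45 gene pairs, correlations within groups ran from -0.81, between P2rx6 and P2rx7, to 0.48, between Adora1 and P2ry6. These are descriptions over 16 arrays that share slides. The genes whose within-group pattern was most like that of P2ry1 were Klk6 (r = 0.97), a protease gene of oligodendrocytes, and Slpi (r = 0.96), a protease inhibitor gene, and without SAM/P-8 CCH replicate 4 these were 0.81 and 0.82. P2ry1 itself correlated with the oligodendrocyte score at r = 0.91 and with the striatal score at 0.78 with that array, and at 0.50 and -0.52 without it. Adora1 was most like Cyfip2 (r = 0.93), and P2ry6 most like Strn4 (r = 0.95) and Ap1b1 (r = 0.94). In the order of protein-coding genes, P2ry13 lies next to P2ry12 on chromosome 3 with P2ry14 beyond 1 further gene, P2rx7 and P2rx4 are adjacent on chromosome 5, and P2ry6 and P2ry2 are adjacent on chromosome 7. Of these neighbours only P2ry6 was called by its brightest probe in any comparison.

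**Figure D4:**
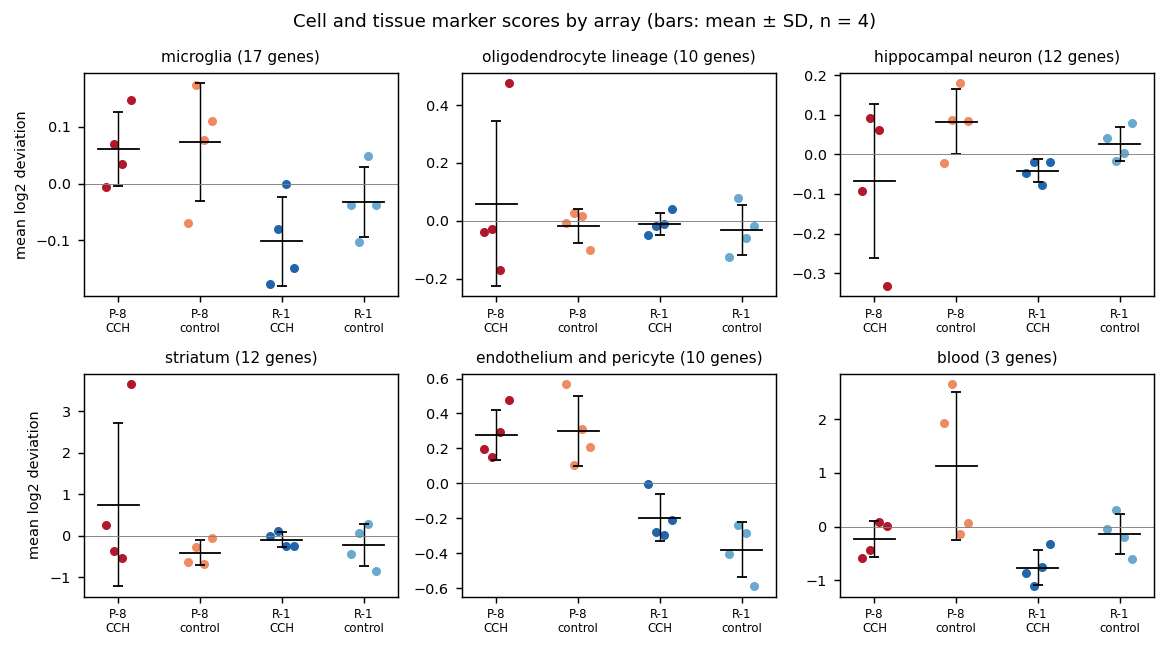
Scores of 6 marker lists by array, as the mean log2 deviation of the listed genes from their means over the 16 arrays, with the group mean ± SD (n = 4), for SAM/P-8 CCH, SAM/P-8 control, SAM/R-1 CCH and SAM/R-1 control. Each vertical axis has its own range. SAM/P-8 CCH replicate 4 stands at 3.66 in the striatal panel, SAM/P-8 control replicates 1 and 2 stand at 1.93 and 2.66 in the blood panel, and all SAM/P-8 arrays lie above all SAM/R-1 arrays in the endothelium and pericyte panel.

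Of the 9 other purinergic receptors listed, 6 were tested and 0 were called in any of the 6 comparisons by limma, with at most 2 at an unadjusted p under 0.05 in a comparison. Of all genes, 12.8% and 12.6% were called between the strains on the control and CCH diets. For CCH the shares were 0.765% in SAM/P-8, 0.111% in SAM/R-1 and 4.15% averaged over the strains, and for the interaction 0.126%. P2ry2, a receptor for ATP and UTP, had the smallest strain p on the CCH diet (0.27 ± 0.10, limma adjusted p = 0.0864), and P2rx2, a neuronal ATP-gated channel, the smallest p for CCH in SAM/P-8 (-0.39 ± 0.14, adjusted p = 0.162). A second, dimmer P2ry2 probe went the other way on the CCH diet, averaging -6.27 in SAM/P-8 and -5.84 in SAM/R-1. On the control diet it averaged -5.28 in SAM/P-8 and -6.13 in SAM/R-1, without overlap. It was well above background on all 4 arrays of SAM/P-8 control only. P2ry12, the microglial ADP receptor next to P2ry13, ran from -0.73 to -0.34 on SAM/P-8 CCH arrays, from -0.82 to -0.32 on SAM/P-8 control arrays, from -0.59 to -0.35 on SAM/R-1 CCH arrays and from -0.52 to -0.24 on SAM/R-1 control arrays. P2ry4, P2ry10 and P2rx1 were not well above background on all 4 arrays of any group. Adora2a, an adenosine receptor abundant in striatum, read 3.53 by its second probe on SAM/P-8 CCH replicate 4 and from -3.47 to -1.08 on the other 15 arrays.

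Of 25 listed genes that release, break down or carry nucleotides and adenosine, 20 were tested. In SAM/P-8, 2 were higher and 1 lower on the control diet, and 3 were higher and 2 lower on the CCH diet, beside the 12.8% and 12.6% of all genes called. For CCH in SAM/P-8 and in SAM/R-1, 0 were called by limma (2 and 0 at an unadjusted p under 0.05), beside 0.765% and 0.111% of all genes. Entpd2, an ectonucleotidase that turns ATP mainly into ADP, gave 0.49, 0.68, 0.61 and 0.65 on SAM/P-8 CCH arrays, 0.46, 0.80, 0.63 and 0.45 on SAM/P-8 control arrays, 1.64, 1.59, 1.57 and 1.56 on SAM/R-1 CCH arrays, and 1.46, 1.71, 1.65 and 1.44 on SAM/R-1 control arrays. The strains were fully apart, and the signal was 1.97-fold lower in SAM/P-8 on both diets, with log2 differences of -0.98 ± 0.08 (adjusted p = 6.55e-07 on the CCH diet and 6.58e-07 on the control diet).

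Enpp1, which splits ATP into AMP and pyrophosphate, was higher in SAM/P-8 by 0.96 ± 0.20 on the CCH diet (limma adjusted p = 0.00591) and by 0.77 ± 0.20 on the control diet (adjusted p = 0.0214). Entpd1, the microglial and endothelial ectonucleotidase CD39, was higher by 0.39 ± 0.10 on the CCH diet (adjusted p = 0.0182) and 0.40 ± 0.10 on the control diet (adjusted p = 0.0135). Its second probe gave 0.50 ± 0.16 on the CCH diet (adjusted p = 0.0488) and -0.08 ± 0.16 on the control diet (adjusted p = 0.793). Ada, which deaminates adenosine, was higher in SAM/P-8 on the CCH diet by 0.46 ± 0.11 (adjusted p = 0.0143), and Slc29a2, an equilibrative nucleoside transporter named here after its values were seen, was lower by -0.26 ± 0.06 (adjusted p = 0.0123). Slc29a2 was not refitted with arrays left out or with other processing. The Enpp1 call on the control diet was lost without SAM/P-8 control replicates 1 or 3 or SAM/R-1 control replicates 1 or 4, with differences from 0.64 to 0.74. The Entpd1 call on the CCH diet was lost without SAM/R-1 CCH replicate 4 (0.36 ± 0.11, adjusted p = 0.0542). On the control diet the Entpd1 call was lost without both arrays of raised blood signal (0.32 ± 0.12, adjusted p = 0.145) and with the mean of its probes (0.16 ± 0.11, adjusted p = 0.395), and Enpp1 gave 0.80 ± 0.23 without those arrays (adjusted p = 0.0547). Entpd2, Enpp1, Ada and Slc29a2 had 1 probe each, as did the receptors Adora3 and P2ry6 and, below, Il1b and Gnai2. In the strain differences of these genes, a strain variant in the probe sequence and a difference in RNA cannot be told apart. The P2ry1 strain call, given only by the brightest of its 2 probes, has the same limit.

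**Figure D5:**
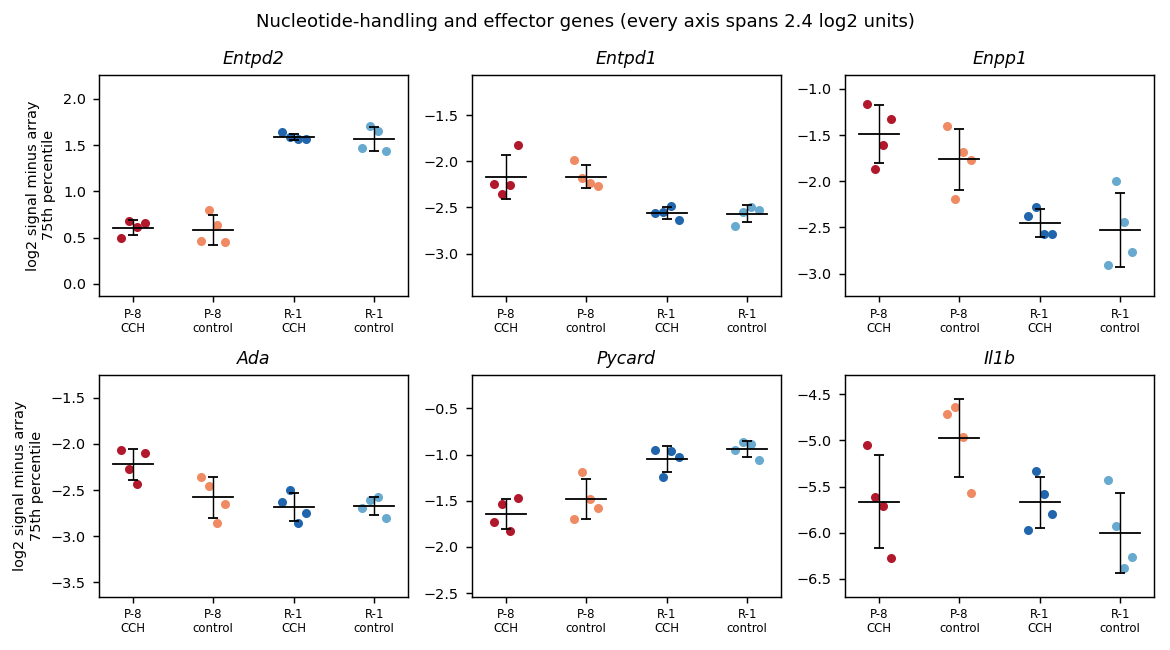
Normalised log2 signal by array of Entpd2, Entpd1, Enpp1, Ada, Pycard and Il1b, with group means ± SD (n = 4), for SAM/P-8 CCH, SAM/P-8 control, SAM/R-1 CCH and SAM/R-1 control. Every vertical axis spans 2.4 log2 units. Entpd2 lies near 0.6 in both SAM/P-8 groups (means 0.61 and 0.58) and near 1.6 in both SAM/R-1 groups (means 1.59 and 1.56).

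Among 18 downstream genes, all tested, 1 was higher and 1 lower in SAM/P-8 on each diet, beside the 12.8% and 12.6% of all genes called on the control and CCH diets. For CCH, 0 were called in either strain by limma (4 at an unadjusted p under 0.05 in SAM/P-8 and 1 in SAM/R-1). Of all genes, 0.765% were called for CCH in SAM/P-8 and 0.111% in SAM/R-1. Pycard, the adaptor of the inflammasome that P2rx7 can trigger, was lower in SAM/P-8 by a log2 difference of -0.59 ± 0.11 on the CCH diet (adjusted p = 0.00175) and -0.55 ± 0.11 on the control diet (adjusted p = 0.00283). Its second probe gave -0.84 ± 0.10 and -0.80 ± 0.10 on the CCH and control diets. Il1b, the cytokine processed by that inflammasome, was higher in SAM/P-8 on the control diet by 1.03 ± 0.27 (adjusted p = 0.0198). Its probe was near background, the call was lost without SAM/P-8 control replicates 1 or 2 or SAM/R-1 control replicates 3 or 4, with differences from 0.90 to 0.94, and without both arrays of raised blood signal it was 0.74 ± 0.33 (adjusted p = 0.231). On the CCH diet the strain difference was 0.0076 ± 0.27 (adjusted p = 0.989). Gnai2, an inhibitory G protein subunit, was higher in SAM/P-8 on the CCH diet by 0.27 ± 0.07 (adjusted p = 0.0208). That call was lost without SAM/P-8 CCH replicate 1 or SAM/R-1 CCH replicates 2, 3 or 4, with differences from 0.22 to 0.26. For CCH in SAM/R-1, Nlrp3 had the smallest p of the list (0.59 ± 0.16, adjusted p = 0.189), and in SAM/P-8 it was Gnaq, the G protein subunit through which P2ry1 acts (-0.30 ± 0.08, adjusted p = 0.0876).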

How the data were processed

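Hippocampal RNA was hybridised to 16 one-colour arrays, and groups were taken from the labels. The deposited scanner files hold background-subtracted processed signals and spot and local background medians as intensity, made with Agilent Feature Extraction 9.5.3.1 per the file headers, and other columns that flag spots, likewise per the file headers. The authors' value table is on a log2 scale and centred per probe, with its scaling between arrays not given in the sources used here. On each array it correlated at 0.99973 or more with the scanner values after centring, with column medians from -0.0381 to 0.0366.

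Processed signals were taken as log2, the 75th percentile of non-control probes was subtracted per array, and spots of a probe were averaged. Of 41174 probes, 29013 were tested, those that the scanner software marked well above background throughout the 4 arrays of some group. Among these, 26383 were so on each of the 16 arrays, with 69 missing values. The number of arrays limits the precision. RefSeq accessions gave 24836 probes a gene symbol, through a table on GRCm38.p6 that served for names and gene order, while the array design was annotated on mm9, so gene positions other than the RefSeq promoter windows are not given. Promoters matched 9 of the 10 members, all but P2ry6.

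limma 3.58.1 in R 4.3.3 fitted 4 group means with 12 residual degrees of freedom (prior 2.32), and 6 contrasts were adjusted by Benjamini-Hochberg over all probes tested at 0.05. The script was tested on simulated data with known changes. Members and gene lists were chosen with earlier results of these data known, and nothing here was fixed without that knowledge. Named were all members with every probe, up to 4 called genes of largest difference per list and contrast (or the 2 of smallest p), and the 2 genes most correlated with a member within groups, given for some members, with some of these genes not reported here. Replicate numbers equalled slide positions, and same-numbered arrays deviated together no more than others (r from -0.249 to 0.304 over 24 pairs, against -0.337 to 0.37), so they were not paired. Alternatives changed the background correction (normexp, offset 50), scaling, filter, value table, probe rule, variance prior, fitted samples, replicate block and left-out arrays. One, leaving out both SAM/P-8 control arrays of raised blood markers, was added after seeing the data.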

Additional observations from a re-analysis of the deposited data

Results flagged for a closer look

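Among 40 sets of 4 arrays, 10 genes in 4 groups, a single array lay far from the other 3 in 2, and about 1 in 20 such sets does so by chance. P2ry1 was 1.01 in SAM/P-8 CCH replicate 4, above the other 3 arrays of that group, which lay between 0.04 and 0.16. The same array carried the striatal signal. P2ry13 was -1.82 in SAM/P-8 control replicate 1, below the other 3 arrays of that group, which lay between -1.43 and -1.40. That array had the lowest microglial score of its group, -0.07, where the others lay between 0.08 and 0.17.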

How the results depend on the processing

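The number of receptor genes called depended on the processing. Between the strains on the control diet it was 3 of 10, against 0 with normexp, 1 with no filter on dim probes, 1 without both SAM/P-8 control arrays of raised blood markers, and 1 to 2 with single arrays left out. There the P2ry1 call was also lost with quantile scaling (limma adjusted p = 0.056) and with the mean of its probes (adjusted p = 0.422). The P2ry6 call was lost when only the groups of the contrast were fitted (adjusted p = 0.105). Adora3 was not tested with only probes above background on all 16 arrays. Between the strains on the CCH diet the count was 0, against 1 with an intensity trend in the variance prior and 0 to 1 with single arrays left out. For CCH in SAM/P-8 it was 2, against 0 with normexp, 0 when only the groups of the contrast were fitted, 0 without the arrays of raised blood markers, 1 with quantile scaling, 1 with no filter, 1 with only probes above background on all 16 arrays, and 1 to 2 with single arrays left out. For CCH in SAM/R-1 it was 0 in all settings run. For CCH averaged over the strains it was 1, against 0 with normexp and 1 with each array left out. For the interaction it was 0, against 1 with the mean of all probes of a gene and 0 to 1 with single arrays left out. The causes were not tested. With the replicate number as a block the count for CCH in SAM/P-8 was 1 in place of 2, the P2ry6 difference having an adjusted p of 0.0574, and the count between the strains on the control diet was 2 in place of 3, the P2ry1 difference of 0.54 having an adjusted p of 0.0552, while 3 of the 16 arrays correlated best with their own number.

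Over the whole array normexp called 961, 841, 0, 0, 111 and 0 probes in the 6 comparisons, where the processed signal called 3998, 3899, 240, 34, 1208 and 47. The second P2rx7 probe was -0.26 and turned to 0.0495 under normexp (adjusted p = 0.861) for CCH averaged over the strains, the only called value among 2730 single values to change sign. Of those, 2600 stayed alike, 76 lost and 12 gained a call, and 41 without a call moved by more than the spread. The scalings moved the median of all genes by at most 0.0163. Normexp also ended the calls of Entpd1 and Enpp1 on both diets, of Ada and Gnai2 on the CCH diet and of Il1b on the control diet. Among the receptors, differences without a call moved under normexp for Adora3, P2ry14, P2rx4 and P2rx6. They also moved for the second P2ry1, P2rx4 and P2rx7 probes. On the CCH diet the strain difference of P2rx4 turned from 0.12 to -0.0066, and that of its second probe fell from 0.16 to 0.0058.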
